A study of Mus musculus with 4 samples.

Results

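Interferon-inducible genes are the effector arm of the antiviral response. They were followed here in the skin of mouse embryos at E16.5 (E, embryonic day) that overexpress Ovol2, a zinc finger transcription factor of epithelia. The members were 32 genes, interferon-inducible genes and their regulators. A member was measured if a probe set (the group of probes that reads a transcript) was annotated with that gene symbol alone, and where several were, the brightest by its mean over the arrays stood for the gene. This found 28 of the 32 members among 19938 genes in all. Isg15, Gbp2 and Igtp lay only on probe sets shared with another gene, and Ifi44 had no annotated probe set in the table used here.

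The study compared 2 control arrays with 2 Ovol2 BT arrays, each of skin RNA pooled from 2 embryos that the labels call female. Ovol2 BT embryos carried TRE-Ovol2-Flag, a tetracycline-responsive Ovol2 transgene, and K5-tTA, a transactivator driven by the promoter of keratin 5, which is active in basal keratinocytes. Controls carried TRE-Ovol2-Flag alone or were wild type, so no group held K5-tTA without the transgene. The labels give the strain as CB6F1 for controls and FVB/N for Ovol2 BT, although they also describe the animals as cage-raised littermates. As labelled, strain and genotype cannot be told apart in any difference below. The sex label did not hold on every array. The Y-linked gene Eif2s3y read 1101 and 55.9 on control replicates 1 and 2 and 1339 and 10.4 on Ovol2 BT replicates 1 and 2, and Xist, the transcript of the inactive X chromosome, read 118, 9142, 312 and 1773 in that order. Replicate 1 of each group thus carried Y-linked signal, so this signal follows the replicate number and is spread evenly over the groups.

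As background, cells sense viral RNA through helicases such as RIG-I (Ddx58) and MDA5 (Ifih1), and secrete interferons. Type I and type III interferons signal through JAK1 and TYK2 to a complex that includes STAT2 and IRF9 and binds interferon-stimulated response elements (ISRE) in promoters. Interferon gamma signals through JAK1 and JAK2 and acts on gamma-activated sites (GAS) in promoters. IFITM proteins, which block the entry of enveloped viruses at membranes, are also known to be expressed without infection in many embryonic and epithelial tissues.

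Promoter sequences of 6 members are shown to describe which of them held an ISRE match and which did not. They are the 4 members whose groups differed at an unadjusted p under 0.05 (Ifitm3, Ifitm2, Oasl2 and Oasl1), Ifitm1, which neighbours Ifitm2 and Ifitm3 among protein-coding genes, and Ifit3, whose groups overlapped. The sequences are RefSeq's for GRCm38.p6, a C57BL/6J genome, and run from 170 bases before the transcript start to 30 after it. Capitals mark matches on either strand to the ISRE core, GAAA followed by NN and GAAA. The windows are chr7:141010715-141010914 (minus strand) for Ifitm3, chr7:140955932-140956131 (minus) for Ifitm2, chr7:140967906-140968105 (plus) for Ifitm1, chr5:114896764-114896963 (plus) for Oasl2, chr5:114923070-114923269 (plus) for Oasl1 and chr19:34583359-34583558 (plus) for Ifit3.
Ifitm3: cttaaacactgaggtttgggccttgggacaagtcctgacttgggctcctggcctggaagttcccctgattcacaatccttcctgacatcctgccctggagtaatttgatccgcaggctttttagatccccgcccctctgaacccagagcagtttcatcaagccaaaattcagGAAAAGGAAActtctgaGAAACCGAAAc
Ifitm2: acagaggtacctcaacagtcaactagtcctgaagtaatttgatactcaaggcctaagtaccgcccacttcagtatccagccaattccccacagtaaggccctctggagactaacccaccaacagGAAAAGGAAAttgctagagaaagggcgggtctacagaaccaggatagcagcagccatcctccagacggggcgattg
Ifitm1: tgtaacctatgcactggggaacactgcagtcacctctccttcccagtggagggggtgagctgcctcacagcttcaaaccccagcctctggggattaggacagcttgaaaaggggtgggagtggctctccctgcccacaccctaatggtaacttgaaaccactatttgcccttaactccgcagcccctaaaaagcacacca
Oasl2: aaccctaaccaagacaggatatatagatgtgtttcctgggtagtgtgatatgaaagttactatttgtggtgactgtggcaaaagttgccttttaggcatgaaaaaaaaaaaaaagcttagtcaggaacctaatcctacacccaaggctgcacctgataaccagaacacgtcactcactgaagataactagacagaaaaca
Oasl1: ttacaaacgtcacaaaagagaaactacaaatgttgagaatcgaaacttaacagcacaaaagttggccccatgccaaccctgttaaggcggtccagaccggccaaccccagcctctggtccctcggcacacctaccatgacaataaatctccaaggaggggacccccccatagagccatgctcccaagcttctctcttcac
Ifit3: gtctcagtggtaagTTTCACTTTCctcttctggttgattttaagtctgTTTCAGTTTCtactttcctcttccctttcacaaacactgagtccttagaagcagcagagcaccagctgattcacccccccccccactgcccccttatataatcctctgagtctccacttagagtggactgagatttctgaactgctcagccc

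The full RefSeq windows, 250 bases before to 50 after the start, were searched for both motifs on both strands. Of the 32 members, 26 had a window, and 15 of these (57.7%) held the ISRE core in at least 1 window, against 3.99% of 27025 genes in the table. The GAS core TTCNNNGAA was found for 8 of the 26 (30.8%), against 9.55% of all genes. Neighbouring ISRE matches can overlap each other, as in Bst2, and 2 ISRE matches overlapped a GAS match. In Ifitm3 both ISRE matches lay within the first 30 bases after the start, in Ifitm2 the match lay before the start, and Ifitm1, Oasl1 and Oasl2 had none in these windows. Among members tested on the arrays, the median log2 difference was 0.14 for the 9 with an ISRE match and 0.23 for the 10 with a window but no match. The ranges of these sets overlapped widely, from -0.49 to 0.72 and from -0.63 to 0.71, so a match did not separate the members that read higher. A match in letters is a description and not a binding site.

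Levels are the deposited intensities, and differences are Ovol2 BT minus control on the log2(intensity + 16) scale. limma was fitted over 14953 genes whose mean reached the 25th percentile (log2 level 7.32), and a gene was called changed at a Benjamini-Hochberg adjusted p under 0.05. Ovol2 itself read 176 and 297 in control skin (replicates 1 and 2, the order used throughout) and 7799 and 7949 in Ovol2 BT skin, so the arrays match their genotype labels. Of all genes tested 4 were called (0.0268%), and of the 21 members tested none was. At an unadjusted p under 0.05, limma had 4 members higher and 0 lower, against 2.49% and 1.73% of all genes, and the lowest adjusted p of a member was 0.434. The labels call the arrays biological replicates, and with 2 a group an exact permutation test cannot go below p = 0.333.

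Most members nevertheless read somewhat higher in Ovol2 BT skin. The difference was above 0 for 18 of the 21 members tested, against 54.4% of all genes tested. The members' median was 0.20 and that of all genes 0.03. Both Ovol2 BT arrays lay above both controls for 10 members (20.1% of all genes did so) and below both for 2 (14.1% of all genes), and the groups of the other 9 overlapped. The members' median against the control mean was 0.21 for the first Ovol2 BT array and 0.29 for the second, where all genes gave -0.00456 and 0.076. Without the filter, 24 of the 28 members found were above 0, against 55.1% of genes. Within arrays of the same replicate number, which share the Y-linked signal, 15 members tested were above 0 for replicate 1, against 48.1% of all genes. For replicate 2 there were 16, against 56.3% of all genes, and 12 were above 0 in both, against 25.5% of all genes. These 12 were Irf7, Irf9, Trim25, Oasl1, Oasl2, Oas2, Ifitm2, Ifitm3, Rsad2, Bst2, Irgm1 and Psmb8. These counts describe genes chosen with earlier results known, and no test was made of the set.

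**Figure D1:**
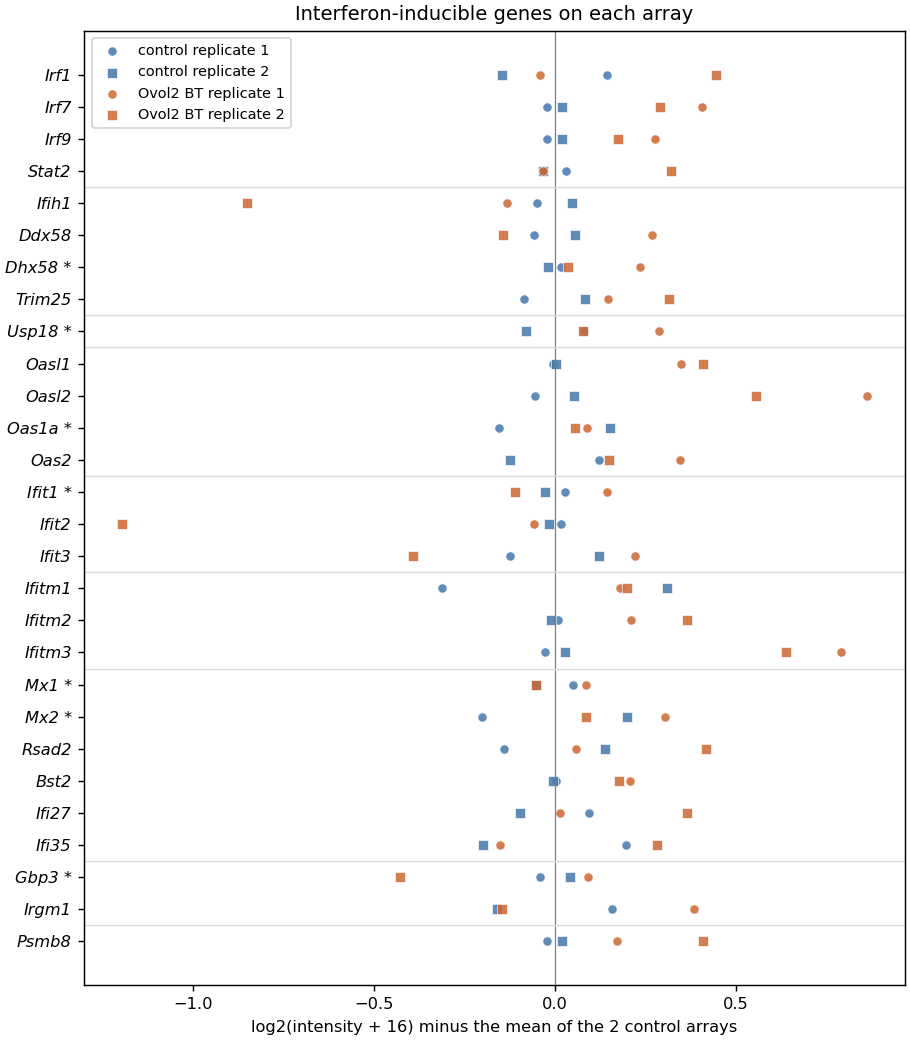
Level of each of the 28 members found on the 4 arrays, as log2(intensity + 16) minus the mean of the control arrays (horizontal axis), with circles for replicate 1, squares for replicate 2 and grey lines between role groups. An asterisk marks the 7 members under the filter; Ifitm3 and Oasl2 stand furthest right on both Ovol2 BT arrays, and Ifit2 and Ifih1 stand far left on Ovol2 BT replicate 2 alone.

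The arrays of one genotype were not alike, and this touches single members. Of the 14953 genes tested, Ovol2 BT replicate 2 had 894 more than 2-fold below the mean of the remaining arrays, while Ovol2 BT replicate 1 had 33. Of the members tested, Ifit2 was the only one among those 894. For 10 of the 21 members the 2 Ovol2 BT arrays differed by more than the groups did, and for 8 the 2 control arrays did. The same shares over all genes were not computed, so these counts cannot be read as particular to the members. With 2 arrays a group, a log2 difference under 1 was rarely detectable: in simulated data of 14953 genes with 200 changed, a log2 difference of 1 was recovered for 7.2% of changed genes and one of 2 for 61.2%. All members tested differed by less than 1.

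Ifitm3, of the IFITM family, had the lowest p of the members tested. It encodes an endosomal membrane protein that restricts influenza and other enveloped viruses. It read 3302 and 3433 in control skin and 5840 and 5253 in Ovol2 BT skin. Both Ovol2 BT arrays were thus well above both controls, and the gap between groups was several times that within either. The log2 difference was 0.72 (SE 0.12, 95% interval 0.43 to 1.01, 1.64-fold, n = 2 arrays per group), with a limma unadjusted p of 0.00118 and an adjusted p of 0.434 over all genes, so it was not called. Within replicate 1 it was 0.82 and within replicate 2 it was 0.61. Without Ovol2 BT replicate 2 it was 0.79 (adjusted p = 0.0143) and without Ovol2 BT replicate 1 it was 0.64 (adjusted p = 0.00487) in limma. Each of these fits has 1 Ovol2 BT array and takes its spread from the controls, and 0.716% and 16.4% of all genes were called.

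Ifitm2, which lies on the other side of Ifitm1 among protein-coding genes, showed a smaller difference. Its brightest probe set read 7968 and 7865 in controls and 9170 and 10209 in Ovol2 BT skin, again without overlap. The log2 difference was 0.29 (SE 0.08, interval 0.08 to 0.49, limma unadjusted p = 0.0143, adjusted p = 0.860). The other probe sets annotated to Ifitm2 gave 0.20 and 0.23, and on each of these too both Ovol2 BT arrays were above both controls. Without Ovol2 BT replicate 1 the difference was 0.37, and without Ovol2 BT replicate 2 it was 0.21.

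Ifitm1, which in the mouse is also known from germ cell development, did not separate. It read 1530 and 2362 in controls and 2156 and 2187 in Ovol2 BT skin. Control replicate 1 was low, while control replicate 2 was above both Ovol2 BT arrays. The log2 difference was 0.19 (SE 0.24, limma adjusted p = 0.916), and it was -0.12 without control replicate 1. A dimmer Ifitm1 probe set showed the same low control replicate 1, at 747 against 1139 on control replicate 2 and 1107 and 1079 in Ovol2 BT skin. The IFITM genes are close paralogs, and their probe sets were not examined for cross-hybridisation.

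In the OAS family, genes of 2'-5' oligoadenylate synthetases and their relatives, the pair of OAS-like genes stood out. Oasl2 read 171 and 185 in controls and 337 and 269 in Ovol2 BT skin. Both Ovol2 BT arrays were clearly above both controls, although they differed from each other by more than the controls did. The log2 difference was 0.71 (SE 0.18, interval 0.27 to 1.15, 1.64-fold, limma unadjusted p = 0.00822, adjusted p = 0.766), with 0.92 within replicate 1 and 0.50 within replicate 2.

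Oasl1, a neighbour of Oasl2 known to restrain translation of Irf7, was close between replicates. It read 213 and 215 in controls and 277 and 289 in Ovol2 BT skin. The log2 difference was 0.38 (SE 0.15, interval 0.00733 to 0.75, limma unadjusted p = 0.0469, adjusted p = 0.907). Oas2, which makes the 2'-5' oligoadenylates that activate RNase L, read 178 and 148 in controls and 211 and 182 in Ovol2 BT skin. Its groups met closely, since control replicate 1 nearly reached Ovol2 BT replicate 2, and the difference was 0.25 (SE 0.16, limma adjusted p = 0.907). Oas1a was under the filter, at 108 and 137 in controls and 130 and 127 in Ovol2 BT skin, which overlapped.

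**Figure D2:**
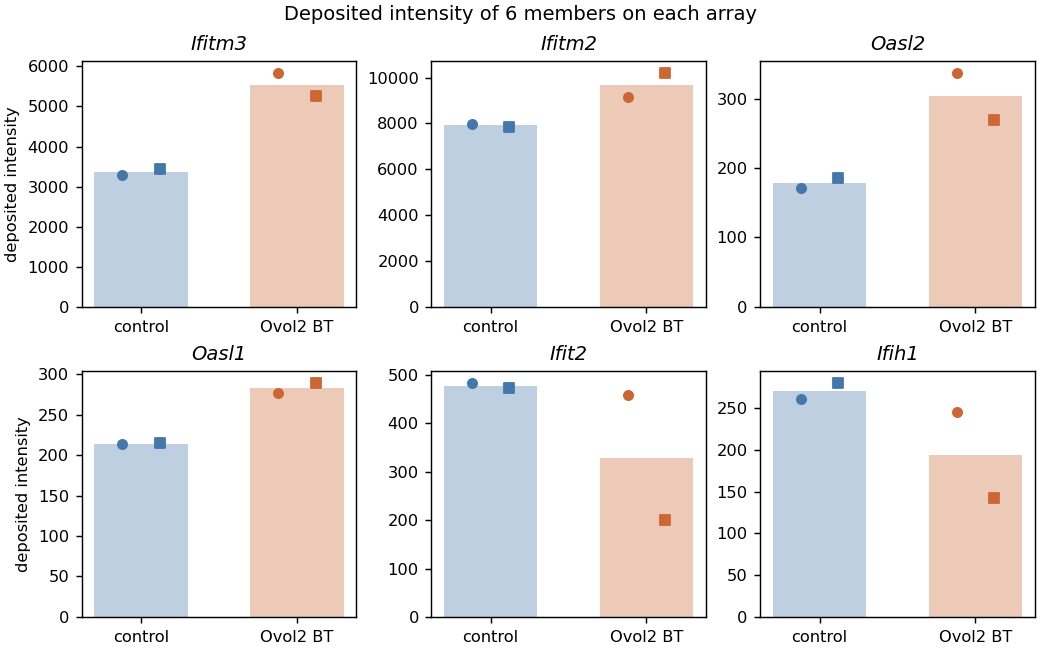
Deposited intensity (vertical axis, from 0) of 6 members in control and Ovol2 BT skin, with a bar for the mean, a circle for replicate 1 and a square for replicate 2. Ifitm3, Ifitm2, Oasl2 and Oasl1 are higher on both Ovol2 BT arrays, whereas the lower means of Ifit2 and Ifih1 come mainly from Ovol2 BT replicate 2.

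The IFIT family, whose proteins bind foreign RNA and block its translation, had no member with both Ovol2 BT arrays above both controls. Ifit2 read 484 and 473 in controls and 459 and 200 in Ovol2 BT skin. Ovol2 BT replicate 1 was next to the controls, and replicate 2 was far below. The log2 difference was -0.63 (SE 0.38, interval -1.59 to 0.33, limma adjusted p = 0.907). It was -0.06 without Ovol2 BT replicate 2 and -1.20 without replicate 1. Ifit3, a partner of IFIT1 and IFIT2 complexes, read 172 and 207 in controls and 223 and 140 in Ovol2 BT skin. The Ovol2 BT arrays lay on either side of both controls, and the difference was -0.08 (SE 0.24, limma adjusted p = 0.958). Ifit1, under the filter, ranged from 90.1 to 111 over the 4 arrays, with both extremes on Ovol2 BT arrays.

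Among the transcription factors, Irf7 and Irf9 were higher on both Ovol2 BT arrays. Irf7, the factor that amplifies interferon alpha production and is itself interferon-inducible, read 196 and 202 in controls and 269 and 247 in Ovol2 BT skin. Its groups did not overlap, and the log2 difference was 0.35 (SE 0.15, interval -0.02 to 0.72, limma unadjusted p = 0.0615, adjusted p = 0.907). Irf9, the DNA-binding partner of STAT2, read 549 and 566 in controls and 680 and 631 in Ovol2 BT skin, a difference of 0.23 (SE 0.18, limma adjusted p = 0.907). It too separated by group, but its interval, from -0.23 to 0.68, included 0.

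Stat2 and Irf1 did not separate. Stat2, the partner of IRF9 in type I interferon signalling, read 564 and 539 in controls and 539 and 692 in Ovol2 BT skin. Only Ovol2 BT replicate 2 was high, and without it the difference of 0.14 (SE 0.21) was -0.032. Irf1, a primary target of interferon gamma signalling, read 330 and 266 in controls and 288 and 410 in Ovol2 BT skin. Its difference of 0.20 (SE 0.23) likewise came from replicate 2 and was -0.041 without it. A dimmer Irf1 probe set read 171 and 202 in controls and 225 and 197 in Ovol2 BT skin (0.17), and there replicate 1 was the high array.

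Among the RNA sensors and their regulators the members differed in direction. Ifih1, the sensor of long double-stranded RNA, read 261 and 280 in controls and 245 and 143 in Ovol2 BT skin. Both Ovol2 BT arrays were below both controls, replicate 1 only just. The log2 difference was -0.49 (SE 0.26, interval -1.15 to 0.17, limma adjusted p = 0.907). It was -0.13 without Ovol2 BT replicate 2 and -0.85 without replicate 1.

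Trim25, the ubiquitin ligase known as a regulator of RIG-I, read 902 and 1016 in controls and 1061 and 1196 in Ovol2 BT skin. The groups did not overlap but were little further apart than the arrays within them, and the difference was 0.23 (SE 0.19, limma adjusted p = 0.907). Ddx58, which encodes RIG-I, read 553 and 600 in controls and 698 and 521 in Ovol2 BT skin. These lay on either side of the controls, with a difference of 0.06 (SE 0.22) that was -0.14 without Ovol2 BT replicate 1. Dhx58, which encodes the regulatory helicase LGP2, was under the filter, at 122 and 119 in controls and 144 and 124 in Ovol2 BT skin.

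Of the other antiviral effectors, Bst2 separated with little spread. Bst2 encodes tetherin, which holds budding virions at the cell surface, and read 316 and 314 in controls and 366 and 358 in Ovol2 BT skin. The gap between the groups was larger than that between arrays of a group, but at a log2 difference of 0.19 (SE 0.16, interval -0.21 to 0.60, limma adjusted p = 0.907) it was small against the variance that limma fits across genes. Rsad2, the gene of viperin, which makes a chain-terminating nucleotide, read 219 and 269 in controls and 253 and 330 in Ovol2 BT skin, which overlapped.

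Ifi27 and Ifi35 overlapped as well. Ifi27, of a family of small mitochondrial and membrane proteins, read 567 and 495 in controls and 535 and 686 in Ovol2 BT skin (0.19, SE 0.21). Ifi35 read 565 and 426 on the controls and 440 and 600 in Ovol2 BT skin, so each group held a low and a high array (0.07, SE 0.25). Without Ovol2 BT replicate 2 its difference was -0.15. The dynamin-like GTPases Mx1 and Mx2 were under the filter, ranging over the 4 arrays from 90.5 to 101 and from 34.2 to 55.2. Mx1 is defective in many inbred laboratory strains.

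The immunoproteasome subunit Psmb8, which changes the peptides cut for class I presentation, read 178 and 184 in controls and 206 and 245 in Ovol2 BT skin. The groups did not overlap, and the difference was 0.29 (SE 0.16, interval -0.10 to 0.68, limma unadjusted p = 0.117, adjusted p = 0.907). Of the GTPases that act on intracellular pathogens, Irgm1 read 275 and 218 in controls and 325 and 220 in Ovol2 BT skin, which overlapped (0.12, SE 0.24). Its difference was -0.15 when Ovol2 BT replicate 1 was left out and -0.039 when control replicate 2 was. Gbp3, under the filter, read 98.3 and 105 in controls and 109 and 71.4 in Ovol2 BT skin. Usp18, the protease that removes ISG15 and dampens the type I receptor, was just under the filter (mean log2 level 7.26), at 136 and 120 in controls and 160 and 136 in Ovol2 BT skin. Oas2 (7.60) was the tested member nearest to the filter.

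**Figure D3:**
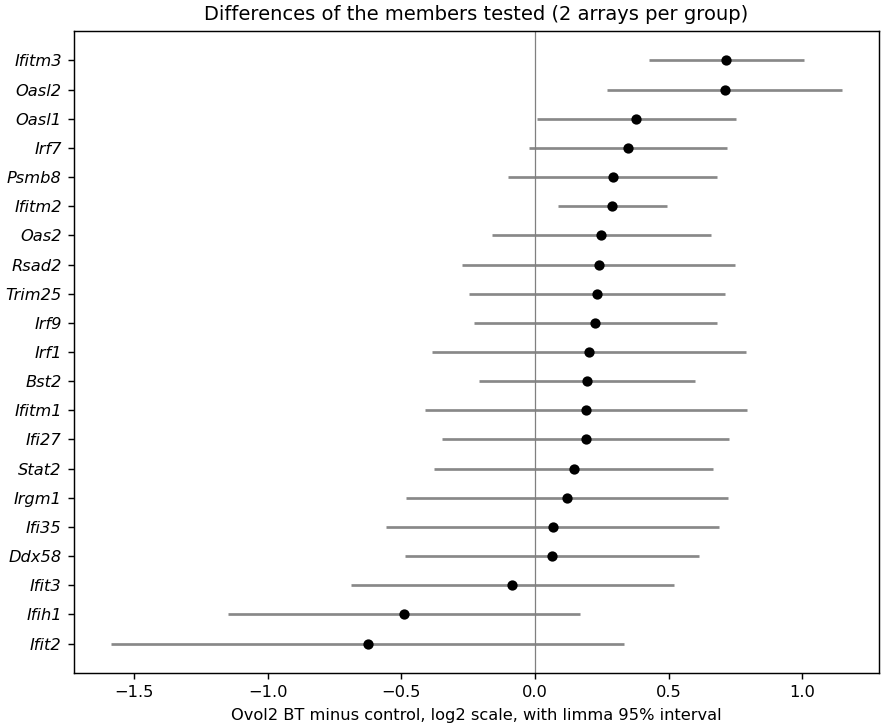
Ovol2 BT minus control difference of the 21 members tested (horizontal axis, log2 scale), with a line for limma's 95% interval from 2 arrays per group. The intervals of Ifitm3, Oasl2, Oasl1 and Ifitm2 lie above 0 before adjustment over all genes, and those of Ifit2 and Ifih1 are the widest.

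Shared probe sets gave values that cannot be assigned to 1 gene. The probe set of Isg15 and the gene model Gm9706 read 90.0 and 96.3 in controls and 107 and 75.6 in Ovol2 BT skin. ISG15 is a ubiquitin-like modifier and one of the most strongly interferon-induced proteins, and here the Ovol2 BT arrays lay on either side of the controls. The probe set of Gbp2 and Gbp2b read 97.8 and 107 in controls and 125 and 89.1 in Ovol2 BT skin. The probe set of Igtp and Irgm2 read 202 and 148 in controls and 191 and 223 in Ovol2 BT skin. A probe set of Oas1a and Oas1g read 123 and 119 in controls and 155 and 149 in Ovol2 BT skin, higher on both, unlike the probe set of Oas1a alone.

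Genes of the pathway that are not members were read from 6 lists. Of 146 genes listed, 123 had a probe set and 94 were tested, and none was called. At an unadjusted p under 0.05, limma had 5 higher and 0 lower. In all 58 of the 94 were above 0, with a median of 0.08 against 0.03 over all genes. Both Ovol2 BT arrays lay above both controls for 25 of them (26.6%) and below for 9 (9.57%). Over all genes tested, 54.4% were above 0, 20.1% had both Ovol2 BT arrays above both controls and 14.1% below, and 2.49% were higher and 1.73% lower at an unadjusted p under 0.05. Without Ovol2 BT replicate 1, limma called 14 of the 94 (14.9%), where 16.4% of all genes were called. The difference between this median and the members' 0.20 was not tested.

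Of 21 interferon ligands listed, 16 had a probe set and 6 were tested, all with differences above 0 from 0.02 to 0.28, and their groups overlapped for 5 of the 6. With cyclic loess Ifna5, Ifna9 and Ifna16 were below 0. Ifna14 (0.28, SE 0.15) and Ifnz (0.18, SE 0.19) had the largest differences. Ifnl2, a type III interferon, read 752 and 1010 in controls and 869 and 1062 in Ovol2 BT skin (0.14, SE 0.24). Ifnb1, the early type I interferon, was under the filter, at 86.7 and 91.2 in controls and 108 and 80.1 in Ovol2 BT skin. Ifnk, the type I interferon of keratinocytes, read 64.3 and 71.9 in controls and 57.4 and 61.5 in Ovol2 BT skin, and Ifng read 83.7 and 95.9 in controls and 83.4 and 71.1 in Ovol2 BT skin. The arrays give no detection call for any gene. Levels under or close to the filter, such as those of Ifnb1, Ifnk, Ifng and Ifna16, cannot be told from background.

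Receptors and kinases went both ways, with 4 of 9 above 0 and a median of -0.00431, which was above 0 with median centring. Jak2, the kinase of the interferon gamma receptor, read 1272 and 1409 in controls and 1126 and 403 in Ovol2 BT skin. Both Ovol2 BT arrays were lower, replicate 2 by far, and the difference was -0.97 (SE 0.48, limma adjusted p = 0.907). It was -0.25 without Ovol2 BT replicate 2 and -1.69 without replicate 1. Jak1, the kinase shared by all interferon receptors, read 3686 and 3324 in controls and 3083 and 2454 in Ovol2 BT skin (-0.35, SE 0.17). Its difference was -0.51 without Ovol2 BT replicate 1. The type I receptor subunits Ifnar1 (0.05, SE 0.16) and Ifnar2 (0.09, SE 0.17) had groups that overlapped.

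Of signal transducers and regulatory factors, 9 of 13 were above 0, with a median of 0.10 and 0 called. Ptpn2, a phosphatase that dampens JAK signalling, differed by -0.42 (SE 0.31), which was 0.00494 without Ovol2 BT replicate 2 and -0.84 without replicate 1. Socs1, an interferon-induced inhibitor of JAK kinases, differed by 0.37 (SE 0.27), which was 0.08 without Ovol2 BT replicate 2 and 0.67 without replicate 1. Of nucleic acid sensors and adaptors, 9 of 15 were above 0, with a median of 0.09. Eif2ak2, the kinase PKR, read 230 and 221 in controls and 205 and 63.9 in Ovol2 BT skin. Its difference of -0.86 (SE 0.46) was -0.12 without Ovol2 BT replicate 2 and -1.59 without replicate 1. Tlr9, a DNA sensor of endosomes, read 264 and 281 in controls and 344 and 416 in Ovol2 BT skin (0.45, SE 0.18, limma unadjusted p = 0.0490). Zbp1, a sensor of Z-form nucleic acids, read 168 and 196 in controls and 281 and 228 in Ovol2 BT skin (0.45, SE 0.18, limma unadjusted p = 0.0468).

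Other interferon-inducible genes, 40 of them tested, were above 0 for 23 and below for 17, with a median of 0.08. Lgals3bp, a secreted glycoprotein, read 873 and 755 in controls and 1337 and 1430 in Ovol2 BT skin. It separated by group, with a difference of 0.76 (SE 0.19, limma unadjusted p = 0.00861, adjusted p = 0.769). The chemokine Cxcl10 read 155 and 152 in controls and 254 and 195 in Ovol2 BT skin (0.50, SE 0.17), and the galectin Lgals9 read 2373 and 2507 in controls and 3346 and 3444 in Ovol2 BT skin (0.47, SE 0.13). In the other direction, Ifi203 differed by -0.54 (SE 0.40) and Gbp7 by -0.51 (SE 0.37), larger in size than Cxcl10 and Lgals9. Without Ovol2 BT replicate 2, Ifi203 was at 0.06 and Gbp7 at 0.03. Cxcl10, Lgals9, Ifi203 and Gbp7 were named after their values were seen. Ube2l6, the enzyme that conjugates ISG15, differed by 0.64 (SE 0.64), with 567 and 1124 in controls and 667 and 2334 in Ovol2 BT skin. Ube2l6 was thus high on replicate 2 of both groups. Its difference was -0.26 without Ovol2 BT replicate 2 and 1.53 without replicate 1.

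Antigen processing and class I genes were above 0 for 7 of 11, with a median of 0.12 and none called. H2-Q4, a class Ib gene, read 546 and 614 in controls and 709 and 841 in Ovol2 BT skin (0.41, SE 0.20). Erap1, a peptidase that trims class I peptides, had a difference of -0.33 (SE 0.29). It was 0.06 when Ovol2 BT replicate 2 was left out and -0.72 when replicate 1 was. Major histocompatibility genes vary between strains, and the labelled strains differ between the groups here.

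**Figure D4:**
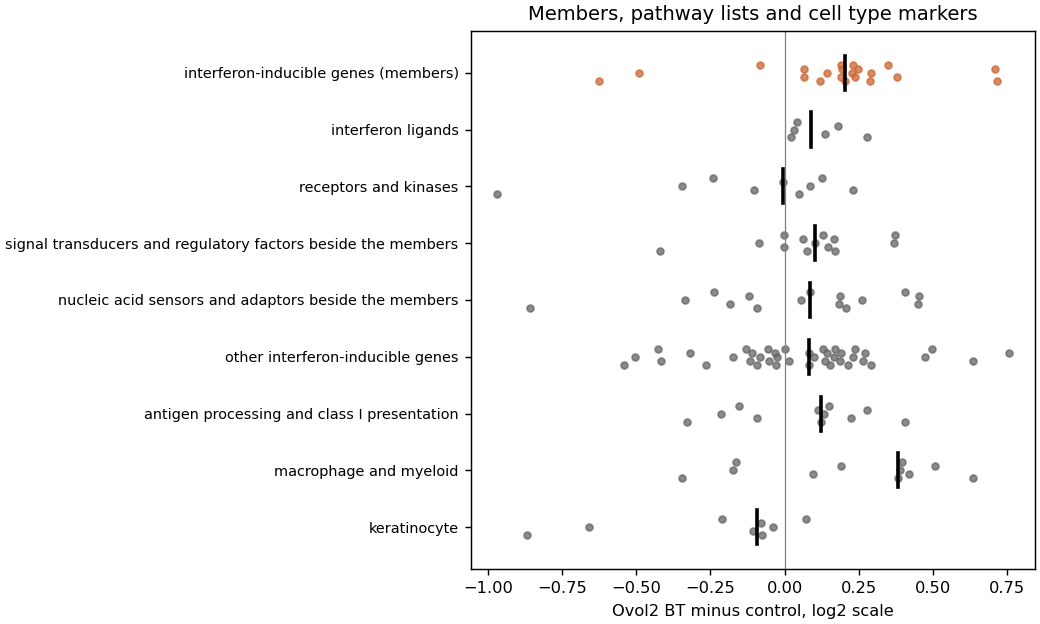
Ovol2 BT minus control difference (horizontal axis, log2 scale) of each gene tested, for the 21 members, the 6 pathway lists and 2 marker lists, with a black bar at each median. The members' median is 0.20, the pathway lists' medians lie between -0.00431 and 0.12, and the macrophage and myeloid median is 0.38.

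The summed intensity of some cell types' markers differed between the groups, and no marker was called with all 4 arrays in the reported fit. In whole skin RNA, fewer cells of a type and less RNA per cell cannot be told apart. All 12 macrophage and myeloid markers had a probe set, and of the 11 tested 8 were above 0, with a median of 0.38. Leaving out Ovol2 BT replicate 2 brought that median to 0.22, and leaving out control replicate 2 brought it to 0.25. Their summed intensity was 12391 and 11478 in controls and 14327 and 15657 in Ovol2 BT skin. Lyz2 (0.63, SE 0.22) and Fcer1g (0.38, SE 0.13) had an unadjusted p under 0.05 in limma and none was called. Ptprc, which marks all leukocytes, differed by -0.35 (SE 0.37). Mrc1 (-0.16) and Cd14 (-0.17) were below 0 too, and above 0 without Ovol2 BT replicate 2 (0.23 and 0.05). Without Ovol2 BT replicate 1 the difference was -0.90 for Ptprc, against 0.62 for Csf1r, 0.84 for Lyz2 and 0.68 for Tyrobp. Without Ovol2 BT replicate 2 it was 0.20 for Ptprc, 0.22 for Csf1r, 0.43 for Lyz2 and 0.11 for Tyrobp. Each of these fits has 1 Ovol2 BT array. Of 8 lymphocyte, Langerhans and plasmacytoid dendritic markers with a probe set, 3 were tested and 5, including Cd207 and Siglech, were under the filter. The part of these cells in the members' values was not tested.

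All 8 keratinocyte markers passed the filter. Of these, 7 were below 0, led by Krt5 (-0.87, limma adjusted p = 0.0600) and Krt14 (-0.66, limma adjusted p = 0.434). Krt5 was called by limma with quantile normalisation (adjusted p = 0.0319), the filter at the 50th percentile (0.0293), the replicate block (0.0473) and the crossed pairing (0.0302), and both genes were called without Ovol2 BT replicate 1 and without Ovol2 BT replicate 2. The other keratinocyte markers differed less, with Trp63 at -0.21, Epcam at -0.11, Krt1 and Krt10 at -0.08, Dsp at -0.04 and Cdh1 at 0.07. The median over the 8 markers was -0.09. The summed intensity of the 8 was 76228 and 77425 in controls and 65681 and 63556 in Ovol2 BT skin. Endothelial markers (median 0.11 over 8, summed 14827 and 15720 against 15311 and 16957) and dermal fibroblast markers (0.03 over 8, 66227 and 63946 against 67795 and 63499) overlapped between groups. Erythroid markers summed to 3308 and 6688 in controls and 3886 and 14729 in Ovol2 BT skin, and skeletal muscle markers to 41962 and 24447 in controls and 23403 and 47105 in Ovol2 BT skin. Ovol2 BT replicate 2 was thus the highest array for both, and their part in the values of Ifit2, Ifih1, Stat2 or Irf1 on that array was not tested.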

How the data were processed

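The authors deposited linear intensity values of 35557 probe sets on each array, made with Affymetrix Expression Console 1.1.1 and PLIER 2.0 per the submitters' processing notes. The normalisation between arrays is not given in the sources used here, nor is the genome build. Per the labels' protocols, total RNA was Trizol-extracted and labelled after random priming. GEO's annotation gave 1 symbol for 21789 probe sets, several for 1621 and none for 12147. Symbols were updated by Entrez number to RefSeq GRCm38.p6 (21698 matched), and the brightest probe set was kept for 999 genes with several.

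Values were taken to log2(intensity + 16) without further normalisation. limma 3.58.1 in R 4.3.3 fitted Ovol2 BT minus control by lmFit and eBayes, with a variance trend on intensity (2 residual and 3.44 prior degrees of freedom), two-sided, with Benjamini-Hochberg adjustment over 14953 genes. It was tested on simulated data. The small number of arrays limits the precision, and there is no read depth. The members and lists were chosen with earlier results of these data known. All members are accounted for. Array values were to be given for members with an unadjusted p under 0.05, the 8 brightest and the 2 of each role with the largest difference, and in the lists the 2 genes with the largest difference were named; others were named after their values were seen. The deviations of same-numbered arrays had a weak negative correlation (r = -0.17 over 14953 genes). The fit took the 2 groups as the whole design, without a pairing by replicate number, although Y-linked signal follows that number.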

Additional observations from a re-analysis of the deposited data

How the results depend on the processing

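Alternatives were median centring, quantile normalisation, an offset of 1 or 64, a filter at the 50th percentile or none, averaged probe sets, a variance without trend, the replicate number as a block, each array left out and, chosen after seeing the data, cyclic loess and a crossed pairing. In every one that kept all 4 arrays, 0 members were called and no tested member changed sign. The filters, the variance without trend, the replicate block and the crossed pairing cannot change a member's difference, so there the sign was fixed. It could turn only with the normalisations, the offsets or averaged probe sets. The members' median was 0.25 with median centring, where that of all genes was 0.077. With cyclic loess the members' median was 0.17 and that of all genes -0.00915. The members' median ranged from 0.19 to 0.29 when 1 array was left out. The stricter 50th percentile filter kept 9 members, and all 9 were above 0. It had removed every tested member below 0 (Ifit2, Ifih1 and Ifit3), along with some above 0. The 9 of 9 thus follows from which members were kept. The share of all genes above 0 was not computed for that filter. Over all genes, 0 were called with a variance without trend and 0 with cyclic loess. With the replicate block 9 genes were called and 0 members, and the crossed pairing called 5 genes and 0 members. Leaving out 1 array gave 4 to 2455 called genes and 0 to 4 members. Those 4 (Ifih1, Ifit2, Ifitm2 and Ifitm3) were called without Ovol2 BT replicate 1, where 16.4% of all genes were, and 1 (Ifitm3) without Ovol2 BT replicate 2, where 107 genes were. The cause was not tested.

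Members that changed sign did so only when 1 array was left out, and were not called there. Over the arrays left out, Irf1 ranged from -0.041 (without Ovol2 BT replicate 2) to 0.45 (without Ovol2 BT replicate 1), Stat2 from -0.032 to 0.32 and Ifi35 from -0.15 to 0.28 on the same arrays, Ifi35 being -0.13 without control replicate 2. Ddx58 ranged from -0.14 (without Ovol2 BT replicate 1) to 0.27 and Irgm1 from -0.15 (likewise) to 0.39, Irgm1 being -0.039 without control replicate 2. Ifit3 ranged from -0.39 to 0.22 (without Ovol2 BT replicate 2), being 0.038 without control replicate 2, and Ifitm1 from -0.12 (without control replicate 1) to 0.50.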
